A study of Rattus norvegicus with 4 samples.

Results

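Dbp, Tef and Hlf are the 3 genes of the PAR bZIP family of transcription factors, and Nfil3 encodes a related bZIP protein that competes with them for the same DNA element. They were followed here in rat adrenal medulla, where chromaffin cells at the core of the adrenal gland secrete adrenaline. The members were taken as every probe set, the group of short probes that reports on 1 transcript, whose platform annotation names a single gene among these 4. These are 4 of the 14217 genes that the array names singly, and they have 9 probe sets among the 31042 outside the array's controls, 1 for Dbp, 3 for Tef, 4 for Hlf and 1 for Nfil3. Total RNA of adrenal medulla was hybridised to 4 arrays. The unstressed group has 2 arrays from rats with no stress, and the immobilized group has 2 arrays from rats held immobile for 2 h, a standard stressor in rodents. Strain, sex, age, the hour of day and whether a sample is 1 animal or a pool are not given in the sources used here. The p-values therefore rest only on how far these arrays differ within a group, which could be technical spread.

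DBP, TEF and HLF bind the D-box, a DNA element with the palindromic core TTACGTAA or its variant TTATGTAA, through a basic region and leucine zipper preceded by a region rich in prolines and acidic residues, and they activate transcription there. NFIL3, also called E4BP4, binds the same element and represses. In many tissues the core clock drives the PAR bZIP genes through E-boxes, CACGTG, in opposite phase to Nfil3, so the activators and the repressor alternate at D-boxes over the day. Nfil3 is also known as a gene induced by cytokines and by cAMP signalling in cells outside the clock.

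The start regions of 3 of the 4 genes, from RefSeq on the GRCr8 build of the rat genome, are shown as a place where such elements can lie. Elements of these genes outside the shown bases were not searched. Each run is the 250 bases just before the gene's listed start, 5′ to 3′ on the + strand, with the motif matches in capitals.
Dbp, chr1:105312006-105312255: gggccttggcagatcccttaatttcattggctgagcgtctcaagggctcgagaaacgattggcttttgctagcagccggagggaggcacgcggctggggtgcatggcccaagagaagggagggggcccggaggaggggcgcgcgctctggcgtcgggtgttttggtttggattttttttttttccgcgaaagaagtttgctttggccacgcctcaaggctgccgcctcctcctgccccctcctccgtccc
Tef, chr7:115206577-115206826: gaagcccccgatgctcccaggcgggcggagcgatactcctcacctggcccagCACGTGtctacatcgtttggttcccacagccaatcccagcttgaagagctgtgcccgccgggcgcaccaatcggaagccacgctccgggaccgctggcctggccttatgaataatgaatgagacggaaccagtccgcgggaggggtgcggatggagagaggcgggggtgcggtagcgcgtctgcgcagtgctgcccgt
Nfil3, chr17:12432126-12432375: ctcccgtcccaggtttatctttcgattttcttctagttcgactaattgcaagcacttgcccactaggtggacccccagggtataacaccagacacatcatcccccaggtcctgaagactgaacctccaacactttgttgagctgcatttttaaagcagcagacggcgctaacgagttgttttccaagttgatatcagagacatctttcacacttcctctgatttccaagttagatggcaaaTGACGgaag

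The motifs searched on both strands were the 2 D-box forms above, the E-box, the full cAMP response element (CRE) TGACGTCA and its core TGACG. The full CRE holds the core on each strand, so every full match is also a core match. The Tef window holds 1 E-box, at bases 198 to 193 before the start, and this window lies inside the span of the annotated gene, downstream of the starts of longer Tef transcripts. The Nfil3 window holds 1 CRE core, at bases 9 to 5 before the start. The Dbp window holds none of the motifs, and none of the 3 windows holds a D-box or a full CRE. Of the 33469 promoter windows of the same length in the table, 5.59% hold an E-box, 18.2% a CRE core, 1.59% a full CRE and 0.932% a D-box.

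The arrays stood in their labelled groups: Pearson's r over the tested probe sets, a description since these are no replicates, was 0.967 and 0.981 within the groups and 0.856 to 0.871 between them. Cell type markers were read from the same arrays. The 8 chromaffin markers measured, among them the catecholamine enzyme genes Th, Dbh and Pnmt, summed to 338182 and 309616 intensity units unstressed and 410903 and 293176 immobilized. The 6 adrenal cortex markers summed to 257132 and 292082 against 276701 and 207638, so the outer gland's transcripts were bright on every array, the lowest single reading being 13924. The groups did not overlap for 4 of these 6, a share near the 67.8% of all tested probe sets without overlap: Cyp11a1, Cyp11b1 and Cyp21a1 read lower after immobilization (log2 changes of -0.35, -0.64 and -0.27, none past the test), and Nr5a1 rose by 0.47. After quantile normalization the falls of Cyp11a1 and Cyp11b1 passed (adjusted p = 0.0249 and 0.0123 in limma) and the rise of Nr5a1 did not (0.0657), nor did it without the filter (0.0702), without the intensity trend (0.0892) or with either immobilized array or unstressed 1 left out (0.133 to 0.189). Schwann or sustentacular markers (3 measured) summed to 6159 to 7880 over the 4 arrays, and this sum joins opposite changes. Gfap, an intermediate filament gene of glia, read 551 and 526 unstressed and 2083 and 1674 immobilized and rose by 1.76 (adjusted p = 0.00215 in limma). The unstressed mean of Gfap lies under the level filter described below, so it was tested only through the immobilized arrays. S100b, a calcium-binding protein gene of glia, fell by 0.59 (0.0168), a call lost with either immobilized array left out (0.0993 and 0.135), and Sox10 did not pass. The 3 endothelial markers measured summed to 29455 and 38588 unstressed against 23515 and 25715 immobilized, and this sum joins opposite changes. Pecam1 read higher on both immobilized arrays (log2 change of 0.54), while Kdr and Tek (-0.33) read lower. Of these Kdr, a receptor for vascular endothelial growth factor, fell by 0.79 (adjusted p = 0.0238 in limma), a call lost after median centring (0.0517), without the intensity trend (0.0511) and with either immobilized array left out (0.148 and 0.0768), while Pecam1 and Tek did not pass. The 4 immune markers summed to 8538 to 9142, and none of the 3 tested passed. None of the 8 chromaffin markers passed. After quantile normalization the rise of Pnmt (0.41) did pass (adjusted p = 0.00609 in limma), as did the fall of Tek (-0.39, 0.0319). No marker was at 0. The part of cell composition in the results below was not tested, and in whole tissue a smaller share of a cell type cannot be told apart from less RNA per cell.

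Intensities were compared as log2(intensity + 16), so every log2 change and fold below is on that scale, with limma's moderated test and a Benjamini-Hochberg adjusted p under 0.05 counted as a call. A probe set was tested when its mean log2 level lay at or above the 40th percentile of all probe sets, near an intensity of 544. Of the 9 member probe sets 6 were tested: 1 rose, 3 fell and 2 did not pass. Over all 18625 tested probe sets 11.7% rose and 19.4% fell, together 31.1%. The groups did not overlap at 5 of the 6 tested members, against 67.8% of all tested probe sets. The call on each gene is therefore read from its size and error below, not from these counts.

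**Figure D1:**
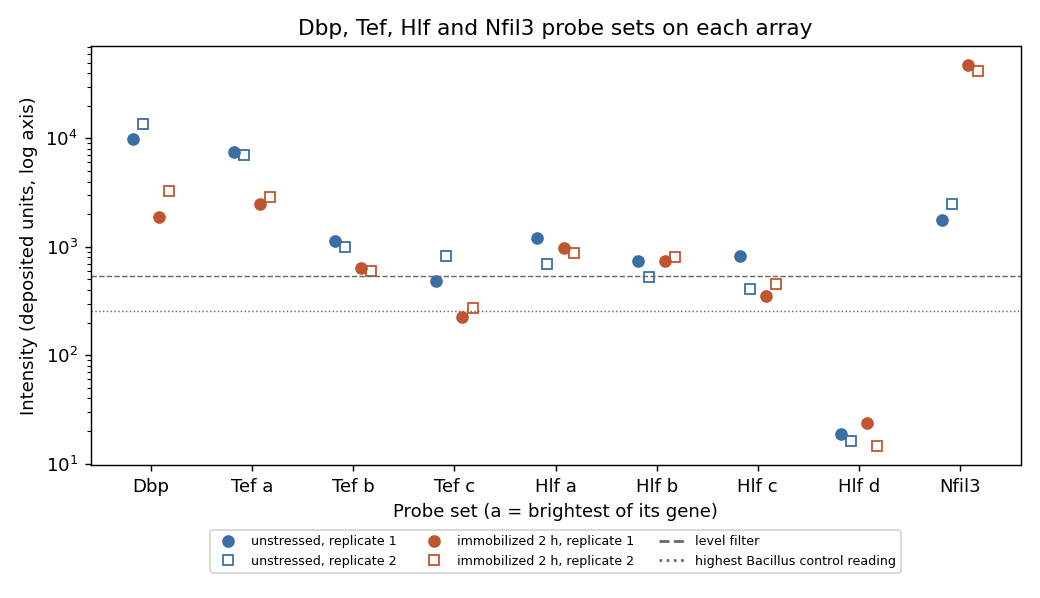
Intensity (vertical, log axis, deposited units) of each of the 9 probe sets on the 4 arrays, with the letter a for the brightest probe set of a gene; blue is unstressed, orange immobilized, and the lines mark the level filter and the highest reading of the Bacillus control probe sets. Nfil3 lies between 41419 and 47534 on the immobilized arrays and at 1786 and 2478 on the unstressed ones, while Dbp and Tef a lie lower after immobilization.

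Nfil3, the repressor, was the member that rose. Its single probe set (1368488_at) read 1786 and 2478 without stress and 47534 and 41419 after immobilization. Both immobilized readings lie far above both unstressed ones, and the readings within a group differed by 0.47 and 0.20 on the log2 scale. The mean went from 2132 ± 489 to 44476 ± 4324 (SD, n = 2 per group). The log2 change was 4.39 ± 0.18 (SE), or 20.9-fold, with a 95% interval of 3.96 to 4.81 and an adjusted p of 4.58e-05 in limma. Of the 18625 tested probe sets 32 had a larger log2 rise, which is 0.172%, and 9 of these 32 were under the highest Bacillus control on both unstressed arrays, so the size of their rise was not measured. The immobilized readings also exceeded the 99th percentile of their arrays, 36447 and 30549, so after 2 h of immobilization Nfil3 was among the brightest percent of probe sets.

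Dbp, a D-box activator known for a strong daily rhythm in many tissues, moved the other way. Its single probe set (1387874_at) read 9943 and 13440 without stress and 1881 and 3242 after it. All immobilized readings were lower, and the lowest unstressed reading stood well above the highest immobilized one. The mean fell from 11692 ± 2472 to 2561 ± 962 (SD, n = 2 per group). The log2 change was -2.22 ± 0.27 (SE), 4.66-fold lower, with a 95% interval of -2.86 to -1.58 and an adjusted p of 0.00193 in limma. The spread within a group was larger here than for Nfil3, 0.43 between the unstressed and 0.78 between the immobilized arrays on the log2 scale. Of all tested probe sets 57 had a larger log2 fall, or 0.306%.

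Tef, the thyrotroph embryonic factor, which binds the D-box like DBP, also fell. Its brightest probe set (1390819_at) read 7516 and 7040 unstressed and 2486 and 2903 immobilized. The groups did not overlap, and the arrays of a group lay within 0.22 of each other on the log2 scale. The log2 change was -1.43 ± 0.14 (SE, n = 2 per group), 2.70-fold lower, with a 95% interval of -1.77 to -1.09 and an adjusted p of 0.000986 in limma. A larger log2 fall was seen in 449 tested probe sets, or 2.41%.

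The dimmer Tef probe sets pointed the same way with smaller or less certain sizes. The second (1385374_at) read 1139 and 993 unstressed and 634 and 602 immobilized. Its log2 change was -0.77 ± 0.22 (SE, n = 2 per group) with an adjusted p of 0.0377 in limma. That call did not hold after quantile normalization (adjusted p = 0.0607), after median centring (0.069), without the level filter (0.0696), or without unstressed 1 (0.0982), immobilized 1 (0.146) or immobilized 2 (0.182). The third (1369919_at) read 486 and 828 unstressed and 225 and 272 immobilized. It lay under the filter and was not tested, and its difference was -1.30 on the log2 scale. Its reading on immobilized 1 lies under the highest Bacillus control of that array, 257, so it was not shown to be above background there. The mean of the 3 Tef probe sets changed by -1.17 ± 0.20 (adjusted p = 0.00554 in limma).

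Hlf, the hepatic leukaemia factor and the third PAR bZIP activator, had its brightest probe set at the 50.8th percentile of level and the others lower. None of its tested probe sets passed. The brightest (1385585_at) read 1194 and 692 unstressed and 971 and 886 immobilized. Both immobilized readings lie between the unstressed ones. The log2 change was 0.03 ± 0.30 (SE, n = 2 per group), with a 95% interval of -0.68 to 0.74 and an adjusted p of 0.954 in limma. The interval leaves room for a fall or a rise of over 1.5-fold, so a change of that size was not detectable with these arrays. Its sign also turned with the arrays used, to -0.36 without unstressed 2 and to -0.04 without immobilized 1.

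The other Hlf probe sets gave no common direction. The second (1374709_at) read 734 and 532 unstressed and 747 and 806 immobilized, a log2 change of 0.30 ± 0.25 (SE, n = 2 per group) with an adjusted p of 0.394 in limma. The immobilized readings are the higher ones, but 1 of the unstressed readings lies close to them. The third (1386641_at) read 829 and 407 against 352 and 450, a difference of -0.53, and was not tested. The fourth (1384811_at) read 14.5 to 23.5 on the 4 arrays, under the highest Bacillus control of each, and was not shown to be above background.

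**Figure D2:**
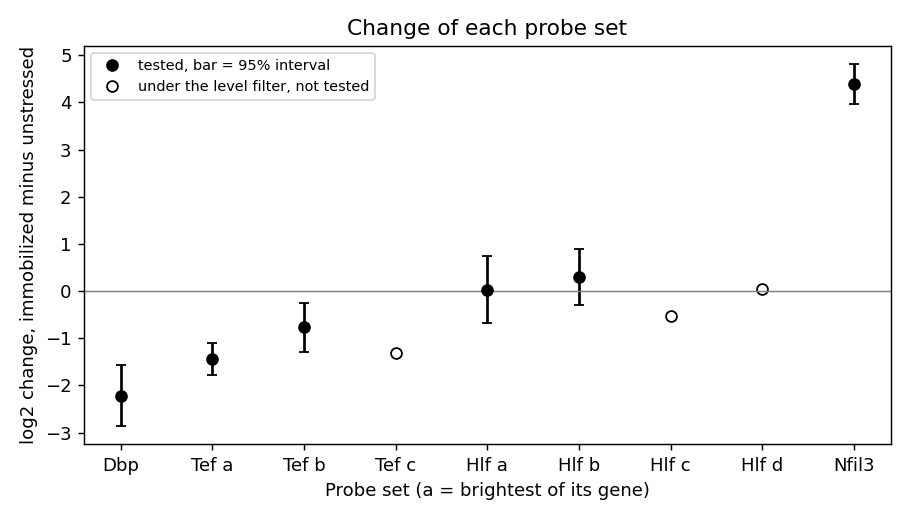
Difference in log2(intensity + 16), immobilized minus unstressed, for each of the 9 probe sets; filled points were tested and carry their 95% interval, open points lay under the level filter. The interval of Nfil3 (3.96 to 4.81) lies above 0, those of Dbp and both tested Tef probe sets below 0, and those of both tested Hlf probe sets include 0.

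The changes of the members were set against each other. Taking each gene at its brightest probe set, Dbp changed by 0.79 more on the downward side than Tef (difference of -0.79, 95% interval -1.52 to -0.06), but that interval included 0 without unstressed 2 (-0.52, -1.22 to 0.17) and without immobilized 1 (-0.51, -1.28 to 0.26). So a difference between Dbp and Tef was not settled by these arrays. Tef and Hlf differed by -1.46 (-2.24 to -0.68) and Dbp and Hlf by -2.25 (-3.20 to -1.29). The gap between a PAR bZIP gene and the repressor was wider: the difference of changes was -6.61 (-7.38 to -5.84) for Dbp against Nfil3 and -5.82 (-6.36 to -5.28) for Tef against Nfil3. For Hlf against Nfil3 it was -4.36 (-5.18 to -3.53). The intervals of these 5 other pairs stayed on 1 side of 0 with each array left out. All 6 intervals are not adjusted for their number and treat the errors of the probe sets as independent, although all were read on the same arrays.

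**Figure D3:**
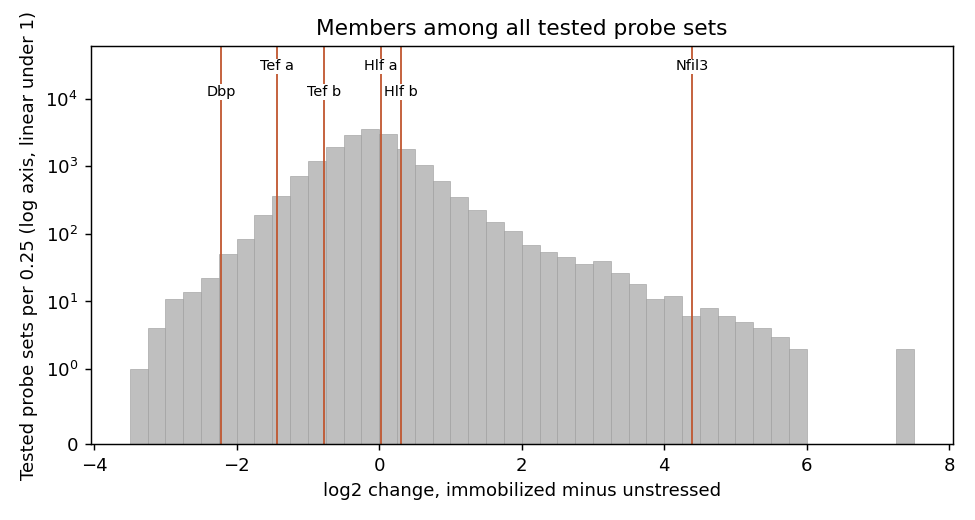
Number of tested probe sets (vertical, log axis that is linear under 1) in bins of 0.25 of the log2 change, immobilized minus unstressed, with lines at the 6 tested members. Nfil3, at 4.39, has 32 probe sets above it, 9 of them not above the control level without stress, and Dbp, at -2.22, has 57 below it, while the Hlf lines lie in the bulk.

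Core clock genes, which drive the PAR bZIP genes and are themselves partly driven by D-boxes, moved in both directions. Of 21 listed genes 17 are named on the array and 15 were tested: 6 rose, 3 fell and 6 did not pass, with a median log2 change of -0.07 beside -0.12 over all tested probe sets. Among the rises, the repressor genes Per1 and Per2 changed by 1.58 and 1.16 and Cry1 by 1.03. Per1 read 2230 and 1940 unstressed and 5864 and 6681 immobilized. Bhlhe40, a repressor at E-boxes, read 1811 and 4731 unstressed and 10872 and 10837 immobilized. Its log2 change of 1.88 was 1.20 without unstressed 1 and 2.57 without unstressed 2, so its size rests on which unstressed array is used. Rora, a nuclear receptor that activates Bmal1, changed by 1.17 and the kinase gene Csnk1e by 0.76. Under the filter, Rorb, a relative of Rora, read 398 and 213 against 864 and 1037, and with no filter its rise of 1.64 passed (adjusted p = 0.029 in limma).

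The falls were those of Npas2, a partner of BMAL1 in binding E-boxes, at -1.21, Per3 at -0.99 and Cry2 at -0.51. The call on Cry2 was lost after quantile normalization (adjusted p = 0.0546 in limma) and after median centring (0.129). In limma it was also lost without the filter (0.0593) and without the intensity trend (0.0723). It did not hold under all 4 array omissions, which gave log2 changes of -0.65 to -0.37. Npas2 read 2905 and 3809 unstressed and 1203 and 1698 immobilized. Clock, Bmal1, Nr1d1 and Nr1d2 did not pass at their brightest probe sets, with log2 changes of 0.27, -0.23, -0.39 and -0.09. The repressor gene Bhlhe41 (-0.37) and the kinase gene Csnk1d (-0.07) did not pass there either. Timeless read 667 and 631 against 368 and 354 and lay under the filter. The probe sets of Clock and Csnk1d disagreed, since a dimmer one of Clock changed by -0.60 (adjusted p = 0.0437 in limma) and a dimmer one of Csnk1d by 0.80 (0.029). With immobilized 1 left out 3 of the list rose and 0 fell, and with immobilized 2 left out 2 rose and 2 fell, so Per1 and Rora were the only rises of the list that held under all 4 omissions.

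**Figure D4:**
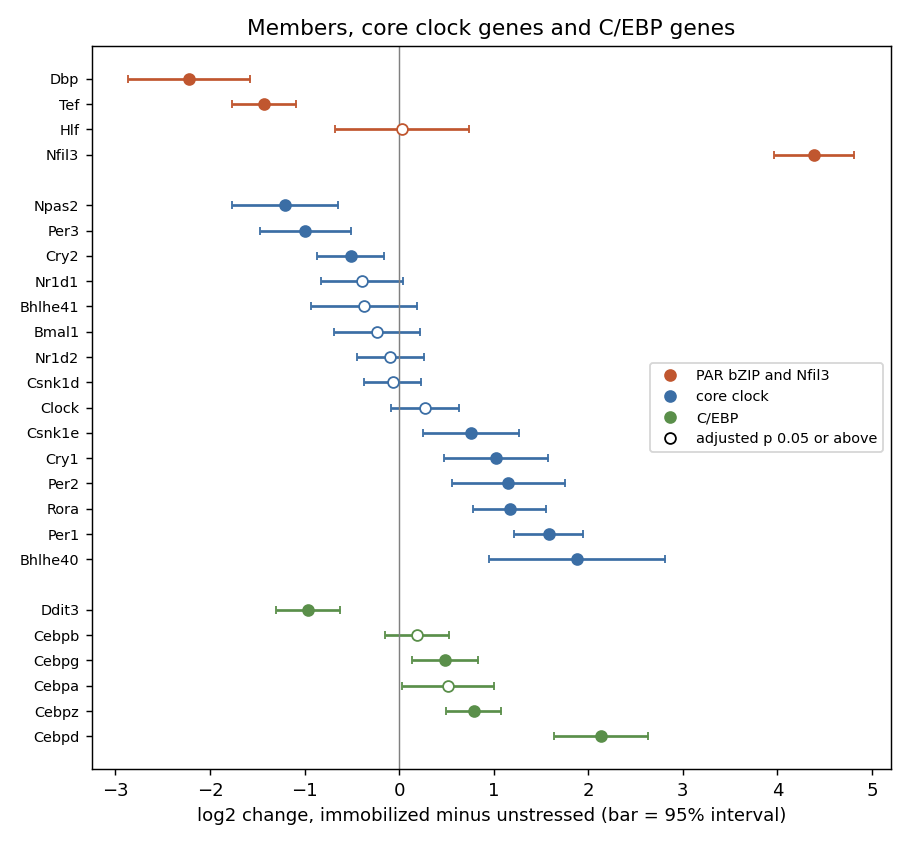
Log2 change, immobilized minus unstressed, with its 95% interval for the 4 members at their brightest probe sets (orange), the 15 tested core clock genes (blue) and the 6 tested genes of the C/EBP list (green); open points did not pass the test. In the order of the points, Nfil3 lies above every gene of both lists, and Dbp and Tef lie below all 15 clock genes. The intervals of Dbp and Tef overlap that of Npas2 (-1.77 to -0.65), and differences between members and clock genes were not tested.

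Genes known as PAR bZIP targets, mostly from liver, were largely dim here. Of 17 listed genes 13 are named on the array and 6 were tested. Among the tested, 4 rose, 1 fell and 1 did not pass, with a median log2 change of 0.89. Of these calls 3 are the Per genes, already counted above. The shares over all tested probe sets were 11.7% and 19.4%, with a median of -0.12. Among the 17 start windows of core clock genes, that of Per2 is the 1 that holds a D-box. Alas1, the first enzyme of haem synthesis, rose by 2.72 ± 0.16 (SE, n = 2 per group), from 8393 and 8819 to 64547 and 50040. Por, which passes electrons to cytochrome P450 enzymes, rose by 0.60. Abcb1a, a drug efflux transporter, read 954 and 480 against 1090 and 1021 and did not pass. Under the filter, Ppara, a nuclear receptor of fatty acid metabolism, read 281 and 461 unstressed and 27.3 and 39.0 immobilized, the latter under the highest Bacillus control of each array, and against that control it was at least 1.79-fold lower. With no filter its adjusted p was 0.0082 in limma. Cyp2e1, also under the filter, read 446 and 388 unstressed and 176 and 142 immobilized. The immobilized readings lie under the highest Bacillus control of each array, and against that control Cyp2e1 was at least 2.06-fold lower. Its adjusted p without the filter was 0.0526 in limma and did not pass. The groups overlapped for the remaining target genes under the filter. With immobilized 2 left out the rises of the list were 2, and the call on Por was lost with either immobilized array left out (adjusted p = 0.0544 and 0.12 in limma).

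The C/EBP genes, whose bZIP products bind DNA elements that overlap the D-box, were the closest family compared. Of 7 listed genes 6 were tested: 3 rose, 1 fell and 2 did not pass, with a median of 0.50. Over all tested probe sets 11.7% rose and 19.4% fell, with a median of -0.12. Cebpd, an acute-phase factor, rose by 2.14 ± 0.21 (SE, n = 2 per group), from 1085 and 965 to 5337 and 3897. Its dimmer probe sets changed by 1.30 (adjusted p = 0.00791 in limma) and, under the filter and not tested, by 0.03. Cebpg rose by 0.49, though its dimmer probe set changed by 0.29 and did not pass (adjusted p = 0.455 in limma). Ddit3, a stress-induced partner that blocks other C/EBP proteins, fell by 0.97. Cebpz, whose product is not a bZIP protein despite its symbol, rose by 0.79. The call on Cebpg was lost without the level filter (adjusted p = 0.0671 in limma), and Cebpa, which had 0.52 at its brightest probe set and did not pass, passed after quantile normalization (0.042). A dimmer Cebpa probe set read 388 and 369 against 802 and 828 and rose by 1.08 (adjusted p = 0.0128 in limma). Both unstressed readings lie under the level filter, so this probe set was tested only through the immobilized arrays. Cebpe lay under the filter, at 314 to 357. Cebpb read 23741 and 27626 against 30872 and 27738 and did not pass. Leaving out immobilized 2 left 1 rise, that of Cebpd, and 0 falls.

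Nfil3 was set beside a list of genes tied to cAMP and its transcription factor CREB. Most are genes known to respond, while Creb1, Atf1 and Crtc2 encode CREB itself, a relative and a coactivator. The list was chosen with results of these samples known, so its direction is no independent evidence. All 20 of its genes named on the array were tested, with a median log2 change of 3.38 beside -0.12 over all tested probe sets. Of these 17 rose, 1 fell (Creb1, at -0.59) and 2 did not pass (Crtc2, at -0.06, and Atf1, at 0.32). Of the 17 rises 7 are genes whose unstressed mean lies under the filter, so that they were tested only through the immobilized arrays: Fos, Fosb, Pde4d, Inhba, Ptgs2, Bdnf and Atf3. With no filter the list also had 17 rises. Of the 6 genes with the largest measured difference, Nr4a3 changed by 5.84 and Fos by 4.97, both above the 4.39 of Nfil3. The other 4, and Bdnf, were under the highest Bacillus control, 193 and 189, on both unstressed arrays, so only a lower bound against that control is given. On log2(intensity + 16) Fosb was at least 46.3-fold higher after immobilization, Atf3 at least 27.8-fold, Inhba at least 26.2-fold, Ptgs2 at least 17.2-fold and Bdnf at least 14.2-fold, with adjusted p from 3.79e-05 to 0.000257 in limma. With these 5 at their bounds the median of the list was 3.38 as well. Nfil3 started from an intensity at which the offset of 16 matters little: its change was 4.40 with an offset of 1 and 4.36 with 64.

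The genes whose readings over the 4 arrays ran most like those of each member were found by the Euclidean distance between log2 values centred on their own means, over 10253 tested genes at 1 probe set each. The nearest to Dbp were Traf1 (distance 0.15), Lipt2 (0.16), Ccdc125 (0.29) and Rtp4 (0.31). Traf1, an adaptor of TNF receptors, read 1136 and 1460 unstressed and 224 and 369 immobilized, with unstressed 2 and immobilized 2 the higher array of each group, as for Dbp. The nearest to Tef were Zfp292 (0.03), Irf1 (0.05), Hoxd9 (0.09) and Klhdc8a (0.11). Irf1, an interferon-responsive transcription factor, read 13043 and 12369 against 4519 and 5116. The immobilized readings of Traf1, Lipt2 and Hoxd9 lie under the level filter, so these genes were tested only through the unstressed arrays.

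Nfil3 had the most distant neighbours: Vil1 (0.33), Gprc5b (0.39), Lrat (0.52) and Giot1 (0.52). Vil1, which encodes the actin-bundling protein villin, read 379 and 463 unstressed and 7572 and 7772 immobilized, so it too was tested only through the immobilized arrays. The same holds for Gprc5b, which read 293 and 328 unstressed. The nearest to Hlf were Lsm11, Col6a1, Dnm1 and Syt3, at 0.03 to 0.06, and like Hlf all 4 read higher on unstressed 1 than on unstressed 2. With 4 arrays and 2 groups, such nearness says only that the size of the change and the order of the arrays were alike.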

How the data were processed

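Adrenal medulla RNA of 2 unstressed and 2 immobilized samples was read on 4 arrays, grouped by the submitters' descriptions and numbered in accession order, which pairs nothing. The authors deposited a table of linear intensities, 1 for each probe set on each array, and their method of summarising probes is not stated in the sources used. As the values show, every column has the same 2% trimmed mean, 2501, with a spread of 0.00572%, so the deposited scaling was kept. No sample column was unused. The 57 control probe sets were left out. The 27 Bacillus controls served as a background reading.

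Values were turned into log2(intensity + 16) and filtered at the 40th percentile of the mean, which left 18625 of 31042 probe sets. The test was limma 3.58.1 under R 4.3.3 (lmFit, eBayes with intensity trend, two-sided, Benjamini-Hochberg over all tested probe sets). With 2 against 2 an exact permutation test cannot go below p = 0.33, so none was run. Precision is limited by the number of arrays. The fit was tested on simulated data. Names come from GEO's platform annotation, matched by Entrez identifier to a GRCr8 gene table. A gene in a list stands at its brightest probe set. The members and lists were chosen with earlier results of these data known.

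Named genes are the members, genes of the core clock and C/EBP lists, and the 6 tested genes of the target list. The 6 largest changes of the CREB-responsive list and the 4 nearest patterns of each member are also named. Marker genes, Ppara, Cyp2e1, Creb1, Crtc2, Atf1 and second probe sets were named after their values were seen. Alternatives were quantile normalization, median centring, offsets of 1 and 64, filters at none and the 60th percentile, a variance model with no trend or with robust estimation, each array left out (for differences between members, added after seeing the data), a threshold of 0.10 and averaging the probe sets of a gene. Plots used matplotlib 3.10.9.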

Additional observations from a re-analysis of the deposited data

How the results depend on the processing

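The rise of Nfil3 and the falls of Dbp and the brightest Tef probe set kept their direction and stayed past the threshold under every alternative run. With each array left out in turn their log2 changes were 4.15 to 4.62, -2.61 to -1.83 and -1.54 to -1.32, and that of the brightest Hlf probe set -0.36 to 0.42. The 3 called member falls became 2 where the second Tef probe set lost its call. Median centring moved the median change of all probe sets from -0.12 to 0.02 and the share of rises among all calls from 37.6% to 53.2% (2844 rose and 2497 fell). Quantile normalization gave 44.9%. With each array left out, all calls ranged from 785 to 2638 rises and 893 to 3800 falls, against 2180 and 3619, since a lone array is then taken to vary like the remaining pair. The core clock list then had 2 to 6 rises and 0 to 3 falls, the target list 2 to 5 and 0 to 1, the C/EBP list 1 to 3 and 0 to 1, and the CREB-responsive list 15 to 17 and 0 to 1. The fall in the CREB-responsive list, that of Creb1, was 0 after quantile normalization, after median centring, without the filter and without the trend. The filter at the 60th percentile tests fewer genes and left 10 of its rises. With no filter the target list had 2 falls, Ppara being the added one, and the core clock list 7 rises with Rorb added and 2 falls. Signs turned only in values that did not pass: after median centring Nr1d2 (0.048), Csnk1d (0.071), Chga (0.052) and Sox10 (0.0044), after quantile normalization Dnm1 (-0.11) and Phox2a (-0.038), and with an array left out Nr1d2 (-0.25 to 0.067), Csnk1d (-0.15 to 0.017), Lsm11 (-0.37 to 0.44), Col6a1 (-0.37 to 0.42), Dnm1 (-0.34 to 0.37), Syt3 (-0.32 to 0.39), Star (-0.21 to 0.35), Hsd3b1 (-0.50 to 0.013), Th (-0.30 to 0.32), Dbh (-0.15 to 0.33), Chga (-0.40 to 0.23), Chgb (-0.21 to 0.30), Scg2 (-0.074 to 0.24), Phox2a (-0.33 to 0.35), Sox10 (-0.49 to 0.22) and Aif1 (-0.033 to 0.086). The mean of the 4 Hlf probe sets lay under the filter and gave no test. No paired analysis was possible because the labels give the groups no shared replicate numbers. Low levels and the spread between the unstressed arrays limit what can be said of Hlf, and dim probe sets what can be said of most target genes.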
